A study of Arabidopsis thaliana with 12 samples.

Results

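In calli grown from petal, cotyledon and root explants of Arabidopsis thaliana, 91 genes had a mean log2 ratio of callus to explant of -2 or less in all 3 organs, which is a level at least 4-fold lower in callus. They were chosen by their measured log2 ratios, among 9694 genes with 3 or 4 measured arrays in each organ. Ratios at the limit where the deposited values stop were set to missing, and the plain mean over the arrays of an organ was taken. In all, 101 genes met these values (1.04% of the tested genes), and 10 of them were left out by name: LHB1B2, RCA, ATPC1, ATG8E, SWEET11, CYP71B20, CYP71B28, CYP71B29, CYP71B34 and GT72B1, which RefSeq also lists as UGT72B1. A mean of -2 or less was reached by 10.7% of the tested genes in petal, 7.41% in cotyledon and 4.37% in root. Because these ratios chose the members, the ratios of callus to explant are given below as a description with no test.

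The tissue came from plants of the Landsberg erecta (Ler) ecotype. Callus RNA, taken after 10 days on an auxin-rich medium that induces callus, shared each 2-colour array with RNA of the day 0 explant of the same organ, with 4 biologically independent arrays for petal, 4 for cotyledon and 4 for root. Replicates 1 and 3 had the callus RNA in Cy5, and replicates 2 and 4 had it in Cy3. Callus over explant is the likely direction of the deposited ratios but is not stated. In the opposite direction the signs given here would turn. A ratio from whole tissue does not separate fewer cells that express a gene from less RNA in each cell. The probe for every member was a single oligonucleotide, so no second probe checks a value.

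On callus-inducing medium, explant cells lose features of the organ they came from, re-enter division and form a tissue that resembles the young lateral root. Cotyledons are green and photosynthesise, petals are pale floral organs at maturity, and roots take up water and minerals. Of the 91 members, 8 had a gene symbol and 5 more had a name among their RefSeq synonyms, while the other 78 are known in the tables used here only by a locus code and are given no role. A symbol was at hand for 1189 of the 9694 tested genes.

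The named members known to act in the chloroplast were PRK, NdhS and CURT1C. PRK (AT1G32060) encodes phosphoribulokinase, the Calvin cycle enzyme that regenerates the acceptor of carbon dioxide. Its log2 ratios in replicates 1 to 4 were -4.24, -4.69, -3.12 and -4.33 in petal, -2.90, -4.63, -2.60 and -4.72 in cotyledon, and -2.03, -4.995, -0.49 and -1.85 in root. Every ratio was below 0, but the root value rests on replicate 2: the root mean was -2.34 ± 1.90 (SD, n = 4) with it and -1.46 without it. In petal and cotyledon both arrays of PRK with callus in Cy3 were lower than both with callus in Cy5. Its cotyledon means were -2.75 with callus in Cy5 and -4.67 with callus in Cy3. NdhS (AT4G23890, also CRR31) encodes a subunit of the chloroplast NADH dehydrogenase-like complex, which carries electrons around photosystem I. Its ratios were -3.51, -3.59, -3.24 and -3.92 in petal, -3.51, -3.89, -3.87 and -4.15 in cotyledon, and -2.07, -2.11, -2.28 and -2.06 in root. The petal and cotyledon arrays all lay below the root arrays, and the 4 root values had an SD of 0.10. The synonym CURT1C marks AT1G52220 as one of the CURT1 proteins that bend the thylakoid membrane at the margins of the grana. It had ratios of -4.21, -4.84, -3.25 and -4.32 in petal, -2.77, -4.47, -2.95 and -4.88 in cotyledon, and -2.69, -2.91, -1.94 and -2.88 in root. In each organ both arrays with callus in Cy3 were lower than both with callus in Cy5, with the widest gap in cotyledon.

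Regulators among the named members were GT2, DEWAX and ATL8. GT2 (AT1G76890) is a trihelix transcription factor of the family first found by its binding to GT elements in promoters of light-regulated genes. Its ratios were -3.87, -3.75, -4.17 and -4.06 in petal, -3.97, -4.03, -4.18 and -3.63 in cotyledon, and -3.03, -3.07, -2.16 and -2.74 in root. The means of -3.96 ± 0.19 in petal, -3.95 ± 0.24 in cotyledon and -2.75 ± 0.42 in root (SD, n = 4 each) correspond to levels 15.6-fold, 15.5-fold and 6.73-fold lower in callus. The name DEWAX (AT5G61590) stands for decrease wax biosynthesis, and the gene encodes an ERF-type repressor of genes that make the wax of the cuticle. It had ratios of -3.54, -5.93, -3.15 and -4.51 in petal, -3.12, -2.99, -3.13 and -2.95 in cotyledon, and -3.52, -3.83, -2.51 and -3.03 in root, so that every array was below -2. ATL8 (AT1G76410) belongs to the ATL family of RING-type ubiquitin ligases, which tag proteins for breakdown. Its ratios were -3.58, -4.69, -2.81 and -4.22 in petal, -2.37, -2.46, -2.48 and -2.17 in cotyledon, and -2.48, -2.51, -2.30 and -1.42 in root, with all petal arrays below all arrays of the other organs.

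Among members of metabolism, AOP1 (AT4G03070) encodes a 2-oxoglutarate-dependent dioxygenase of the family that also holds the glucosinolate enzymes AOP2 and AOP3, close relatives whose RNA its probe may also bind. Its ratios were -3.98, -4.55, -3.36 and -3.72 in petal, -3.10, -2.31, -3.26 and -2.92 in cotyledon, and -1.88, -2.24, -2.69 and -2.79 in root. All petal arrays lay below all cotyledon and root arrays. LKR/SDH (AT4G33150) is the bifunctional enzyme that begins the breakdown of lysine. It stood at -2.84, -5.05, -1.33 and -5.47 in petal, at -2.98, -2.96, -3.00 and -3.13 in cotyledon, and at -2.23, -2.21, -1.69 and -2.08 in root. The cotyledon and root arrays agreed closely, and the petal arrays spread by an SD of 1.94, with both arrays of callus in Cy3 the lower. GnTL (AT3G52060), named for its likeness to N-acetylglucosaminyl transferases, had the smallest spread of organ means of all members. The means were -2.06 ± 0.91 in petal, -2.13 ± 0.62 in cotyledon and -2.10 ± 0.57 in root (SD, n = 4 each), and single arrays ran from -2.97 to -0.83.

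Transport was represented among the named members by SFP1, ZIP6 and NPF6.4. SFP1 (AT5G27350), of the sugar-porter family of monosaccharide carriers, had ratios of -2.58, -2.12, -2.15 and -3.23 in petal, -3.44, -3.51, -2.95 and -2.69 in cotyledon, and -2.72, -2.17, -1.78 and -2.37 in root. ZIP6 (AT2G30080), of the ZIP family of zinc and iron transporters, had ratios of -3.01, -3.16, -2.27 and -2.41 in petal, -2.79, -2.68, -2.59 and -2.08 in cotyledon, and -2.66, -3.10, -2.17 and -2.94 in root. The organs overlapped for ZIP6, whose means were -2.71 in petal, -2.54 in cotyledon and -2.72 in root. NPF6.4 (AT3G21670), of the NRT1/PTR family of nitrate and peptide transporters, was among the members nearest to the threshold. Its ratios were -3.64, -4.79, -0.82 and -4.29 in petal, -3.37, -4.55, -3.92 and -4.45 in cotyledon, and -1.48, -2.94, -0.72 and -2.88 in root. Petal replicate 3 and root replicate 3 were the highest of their organs. In every organ both arrays with callus in Cy3 were also lower than both with callus in Cy5. The root mean of NPF6.4 was -1.10 with callus in Cy5 and -2.91 with callus in Cy3. LEA4-5 (AT5G06760) encodes a late embryogenesis abundant protein, a class that protects cells during water loss. It had ratios of -3.72, -0.59, -2.26 and -2.38 in petal, -1.22, -3.34 and -4.39 in cotyledon replicates 1, 3 and 4, and -1.23, -3.80, -2.47 and -4.29 in root. Its arrays disagreed in every organ, with SDs of 1.28 in petal, 1.62 in cotyledon and 1.38 in root, and the cotyledon mean rests on 3 arrays because replicate 2 was at the limit.

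**Figure D1:**
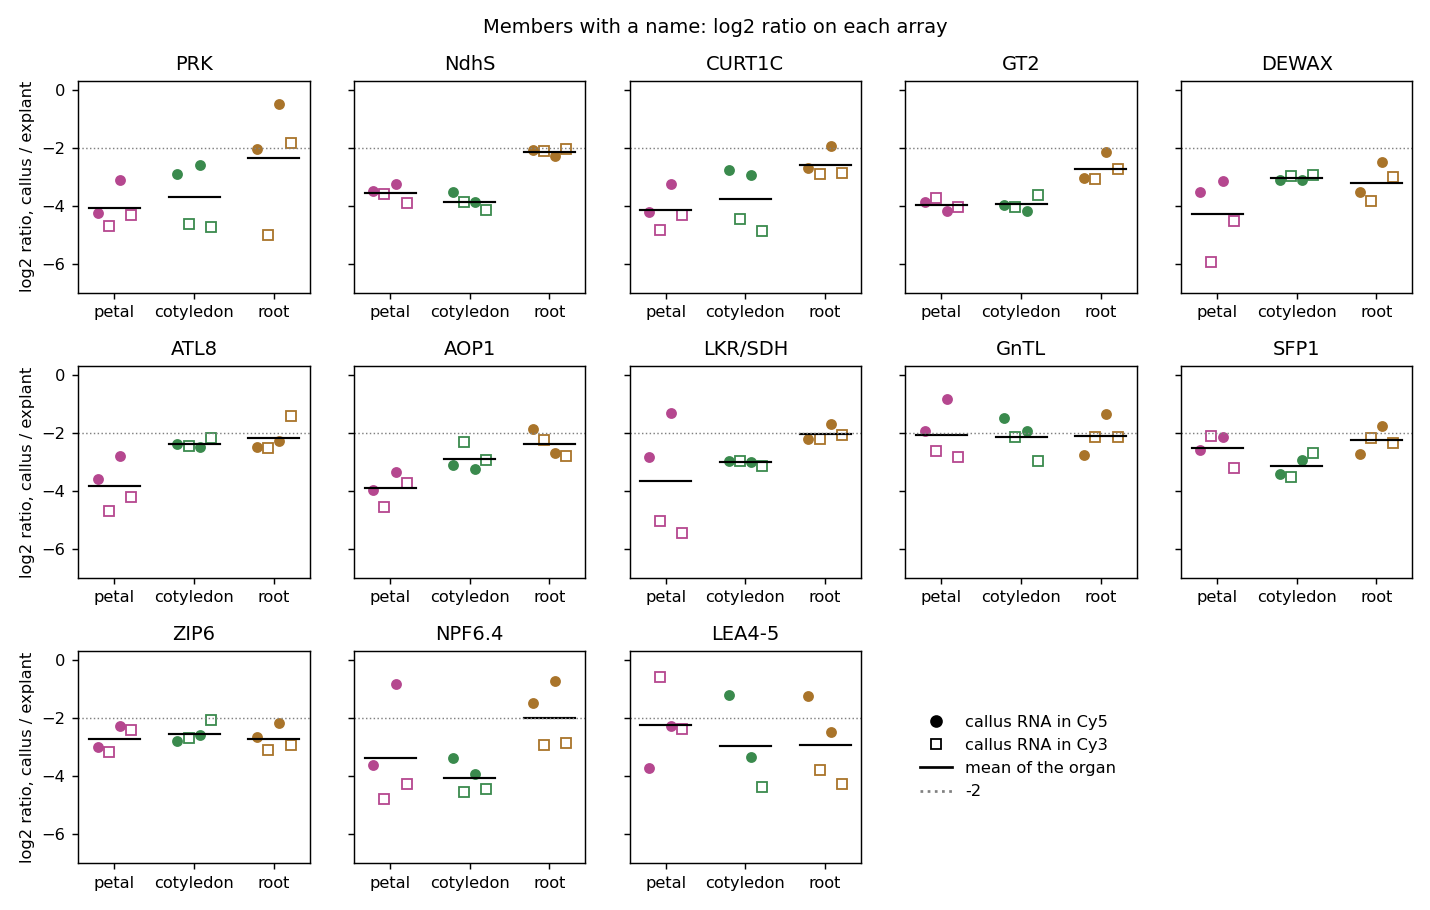
Log2 ratio of callus to explant (vertical axis, likely direction) of the 13 members with a name, by organ on the horizontal axis, 1 point per array, filled circles with callus RNA in Cy5 and open squares with callus RNA in Cy3; black lines are organ means and the dotted line is -2. The arrays of NdhS, GT2 and ZIP6 have SDs of 0.10 to 0.44 within an organ. Those of LEA4-5, with SDs of 1.28 to 1.62, and of PRK in root, with 1.90, lie far apart.

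The members with the lowest ratios were all known by locus code alone, apart from DEWAX. Ranked by the highest of the 3 organ means, AT3G49790 came first. Its means were -3.94 ± 0.47 in petal, -4.70 ± 0.26 in cotyledon and -3.19 ± 0.62 in root (SD, n = 4 each), which makes callus levels 15.3-fold, 26.0-fold and 9.13-fold lower. AT3G14560 followed at -4.66 ± 2.09, -3.27 ± 0.27 and -3.16 ± 0.56 in petal, cotyledon and root. Its petal arrays fell into dye pairs, at -2.82 and -2.88 with callus in Cy5 and at -6.63 and -6.30, next to the limit, with callus in Cy3. AT2G32150 had the lowest cotyledon mean of all members, -5.46 ± 0.56, beside -3.15 ± 1.18 in petal and -3.81 ± 0.42 in root. AT4G09760 averaged -4.18, -4.14 and -3.13, and AT3G01350 averaged -3.11, -4.36 and -3.48, in petal, cotyledon and root. The rank of AT4G21870, at -3.90 ± 1.31, -3.47 ± 0.57 and -2.96 ± 2.42, depends on root replicate 2, which gave -6.56 against -2.18, -1.52 and -1.58 on the other root arrays. Without that array its root mean was -1.76. AT3G22560, AT1G68620 and AT2G20670 completed the 10 lowest, with highest organ means of -2.93, -2.90 and -2.89.

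At the other end, the members just inside the threshold were AT2G05310 with a root mean of -2.002, NPF6.4 at -2.005 in root, AT4G30460 at -2.01 in petal, AT1G49200 at -2.01 in cotyledon, and AT2G27500 at -2.02 in root. Just outside it lay GTR2 (AT5G62680) at -1.97 in root, AT3G15440 and AT5G51390 at -1.96 in root, UBC29 (AT2G16740) at -1.95 in root and AT3G60520 at -1.94 in cotyledon. These differences across the line are far smaller than the SD between arrays, whose median over members was 0.79 in petal, 0.36 in cotyledon and 0.50 in root. Over all tested genes the median SD was 0.35 in petal, 0.25 in cotyledon and 0.28 in root.

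Most members were lower on nearly every array. Of the 91, 90 were below 0 on each array that measured them, 80 were at -1 or less on each and 22 were at -2 or less on each. The exception was AT4G16190, at 0.21 on petal replicate 3. The medians of the members were -3.42, -3.93, -2.66 and -3.59 on petal replicates 1 to 4, -2.90, -3.23, -2.95 and -3.06 on cotyledon replicates 1 to 4, and -2.61, -3.08, -2.12 and -2.67 on root replicates 1 to 4. Petal replicate 3 gave the highest of the 4 values for 63 of 86 members measured on all petal arrays, and root replicate 3 for 62 of 89 in root. The spread of all tested genes was also narrowest there, with an SD of 1.57 on petal replicate 3 against 1.63 to 1.95 on the other petal arrays, and 0.91 on root replicate 3 against 1.08 to 1.31 on the other root arrays. Root replicate 2 gave the lowest of the 4 values for 51 of 89 members. Without it 75 of the 91 kept a root mean of -2 or less, and the 16 that did not included PRK, NPF6.4, LKR/SDH, AT4G21870 and AT1G10225. The part of array scale in the depth of these ratios was not tested, and the counts of members by array were not made over all tested genes.

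**Figure D2:**
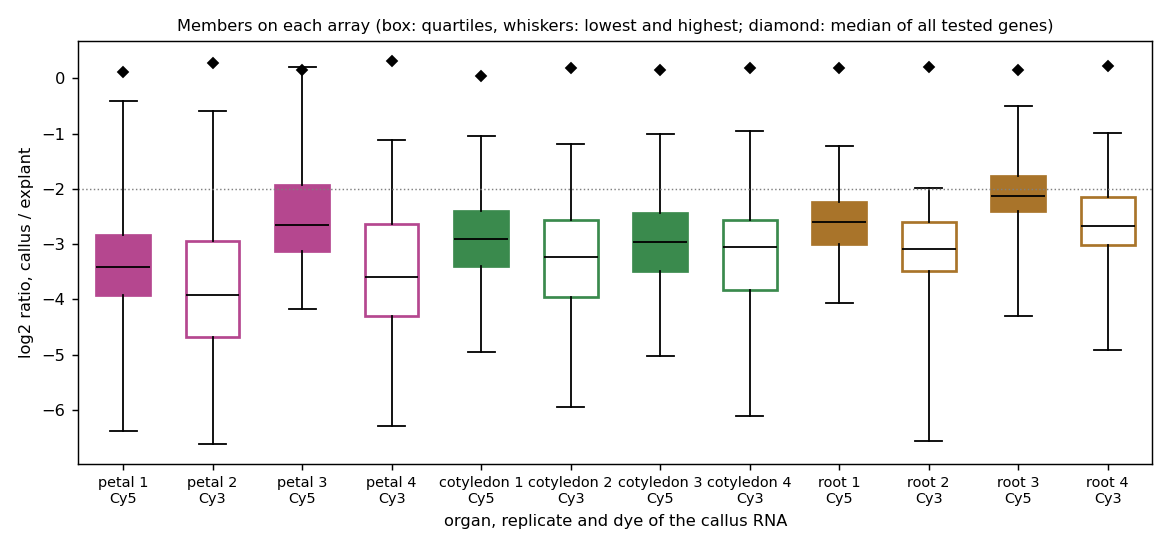
Log2 ratio of callus to explant (vertical axis) of the members on each of the 12 arrays (horizontal axis, with the dye of the callus RNA); boxes span the quartiles, the line is the median, whiskers reach the lowest and highest member, and diamonds are the medians of all tested genes. The member medians lie between -3.93 and -2.12 on every array, while the medians of all tested genes lie between 0.05 and 0.32.

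Differences between organs were fitted with limma over all tested genes. For the members they are a description and support nothing, because they are differences of the same organ means that chose the members. A limit of -2 in organs of unequal spread can favour a lower ratio in the organ with the wider spread and can change how often wide differences occur. The SD of the ratios over all tested genes was 1.67 in petal, 1.38 in cotyledon and 1.00 in root. In petal against root, 41 of 91 members had an adjusted p under 0.05 in limma, 37 of them lower in petal and 4 lower in root, or 45.1% against 60.1% of all tested genes. The lower side held 26.7% of all tested genes and the higher side 33.4%. In cotyledon against root, 31 members were called (34.1%, against 53.9% of all tested genes), 27 of them lower in cotyledon and 4 lower in root. Of all tested genes 26.9% were lower and 27% higher there. In petal against cotyledon, 23 members were called (25.3%, against 49.5%), 17 of them lower in petal and 6 lower in cotyledon, where all tested genes gave 18.8% lower and 30.8% higher. Without petal replicate 3 this last count was 35 of 91, beside 49.6% of all tested genes. The median differences over members were -0.77 for petal minus root, -0.38 for cotyledon minus root and -0.17 for petal minus cotyledon, and those over all tested genes were 0.05, -0.02 and 0.18. The part of the unequal spread in these counts and medians was not tested.

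By these calls the members were sorted into organ patterns, again as a description. The share of all tested genes with each pattern was not counted, so no background stands beside these numbers. In 18 members petal and cotyledon were both lower than root, with median means of -3.78, -3.81 and -2.39 in petal, cotyledon and root. NdhS, GT2, CURT1C and NPF6.4 belonged here. NdhS differed by -1.43 ± 0.16 for petal minus root and -1.72 ± 0.16 for cotyledon minus root (SE), and GT2 by -1.21 ± 0.22 and -1.20 ± 0.22. NPF6.4 had one of the widest gaps between cotyledon and root, -2.07 ± 0.53. AT5G59080 had one of the widest between petal and root, -1.998 ± 0.31, with 4 of 4 petal arrays below every root array. AT3G05180 also followed this pattern, at -2.15 ± 0.47 for cotyledon minus root.

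In 12 members petal was lower than both other organs, with median means of -3.82 in petal, -2.33 in cotyledon and -2.34 in root. ATL8 and AOP1 were among them. The petal ratio of ATL8 was lower by 1.65 ± 0.37 than in root and by 1.45 ± 0.37 than in cotyledon (SE). Among members lower in petal, the widest gaps were those of AT3G07010, at -2.39 ± 0.52 for petal minus root and -2.05 ± 0.52 for petal minus cotyledon, and of AT3G52500, at -2.09 ± 0.45 and -2.14 ± 0.45 (SE). AT3G07010 had petal ratios of -3.42, -6.10, -3.01 and -5.53, and AT3G52500 of -3.65, -5.75, -3.08 and -4.64, so the 2 arrays with callus in Cy3 were the lower ones in both genes. AT3G04010 differed by -1.60 ± 0.43 for petal minus cotyledon.

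Cotyledon was lower than both other organs in 6 members: AT3G49790, AT2G32150, AT3G01350, AT1G03660, AT1G61740 and AT1G49500. AT2G32150 was higher in petal than in cotyledon by 2.31 ± 0.47 (SE) and AT1G61740 by 1.66 ± 0.30. For AT1G03660 the difference of cotyledon minus root was -1.84 ± 0.32. Cotyledon was the least lowered organ in AT5G52950 and AT5G23370, and AT5G23370 gave 1.99 ± 0.52 for cotyledon minus root. Root was lower than both other organs in AT3G62040 and AT2G40460. AT2G40460 had ratios of -2.97, -2.85, -2.43 and -2.45 in petal, -2.97, -2.04, -2.32 and -1.95 in cotyledon, and -3.49, -4.72, -4.06 and -4.07 in root, so the root arrays did not overlap with the others. These genes, named here because their patterns hold few members, were chosen after their values were seen.

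No difference between organs was called for 36 of the 91 members, and for 21.7% of all tested genes. ZIP6, GnTL, LEA4-5 and AT3G14560 were among them. A p above the threshold does not show that the organs respond alike. For ZIP6 the difference of petal minus root was 0.0046 ± 0.27 (SE), for GnTL 0.04 ± 0.39 and for LEA4-5 0.71 ± 0.89. The smallest ranges of organ means were those of GnTL, AT1G72510 and AT4G30460, and AT1G72510 averaged -2.32, -2.25 and -2.34 in petal, cotyledon and root. The largest range was that of AT1G03106, whose cotyledon ratios of -4.74, -5.21, -4.89 and -4.98 stood against -2.59, -2.51, -1.75 and -1.31 in root. That is a difference of -2.91 ± 0.81 for cotyledon minus root (SE). Its petal values of -6.39, -2.67 and -1.83, with replicate 2 at the limit, spanned both organs. The petal minus root differences of AT3G61210, -2.03 ± 0.46, and of AT5G44410, -1.82 ± 0.69, were also among the widest, and the second rests on 3 petal arrays and lost its call under several alternatives.

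**Figure D3:**
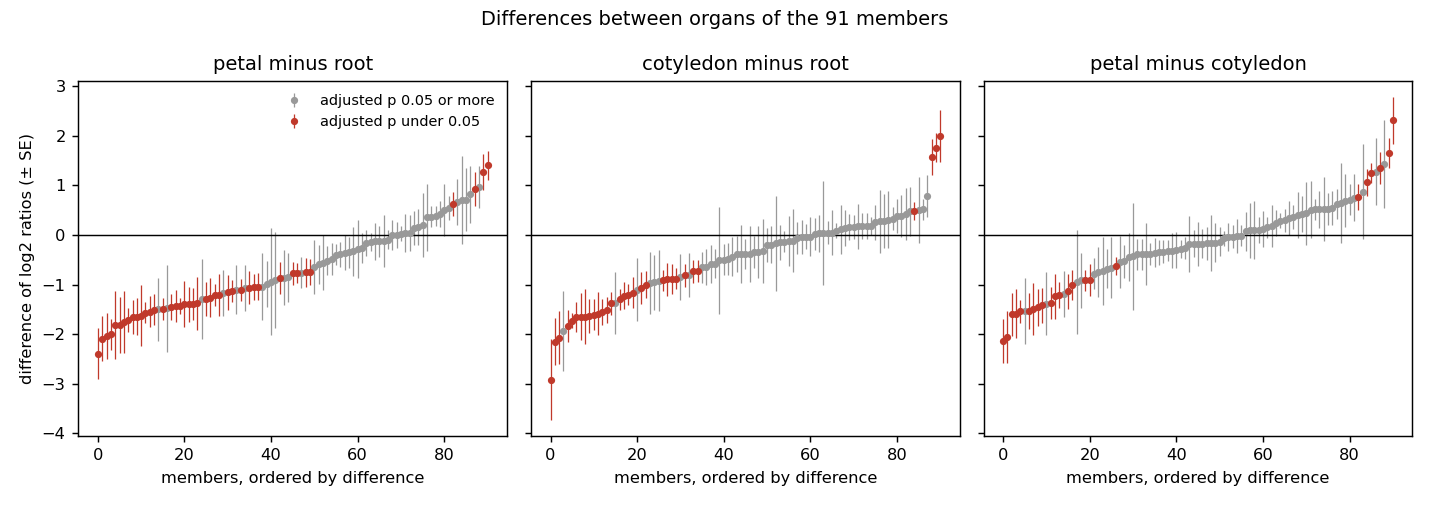
Difference of log2 ratios between organs (vertical axis, fitted estimate ± SE) for the 91 members, ordered by size along the horizontal axis, for petal minus root, cotyledon minus root and petal minus cotyledon; red points have a limma adjusted p under 0.05. Of the red points, 37 of 41, 27 of 31 and 17 of 23 lie below 0.

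The difference between the 2 dye orientations does not enter the mean that chose a member measured on all arrays. The rule can still favour low ratios on arrays of wider spread, so the dye counts below are not free of it. The SD of all tested genes was 1.31 and 1.08 on root arrays with callus in Cy3, and 1.09 and 0.91 with callus in Cy5. In petal it was 1.86 and 1.63 against 1.95 and 1.57, and in cotyledon 1.44 and 1.41 against 1.51 and 1.43. The part of this choice in the dye terms was not tested. Ratios were higher, that is nearer to 0, with callus in Cy5 than with callus in Cy3 for 74 of 91 members, with a median dye term of 0.43 on the log2 scale against -0.04 over all tested genes. The share of all tested genes with a dye term above 0 was not counted. The dye term passed in 7 members (7.69%, against 3.62% of all tested genes, limma adjusted p under 0.05), all higher with callus in Cy5, where 2.03% of all tested genes were called, and 1.59% were called on the other side. Without 1 array at a time the count ran from 1 (without cotyledon replicate 3, petal replicate 2 or petal replicate 4) to 9 (without root replicate 1). The share of all tested genes ran from 1.07% to 4.12%. With limited ratios kept, 10 of 91 members were called, beside 11% of all tested genes. Over genes measured on all 12 arrays, 10 of 83 members were called, beside 5.07% of all such genes. Medians of the member means with callus in Cy5 and Cy3 were -2.99 and -3.58 in petal, -2.95 and -3.09 in cotyledon, and -2.33 and -2.82 in root. Fitted by organ, the median dye term was 0.55 in petal, 0.07 in cotyledon and 0.47 in root, beside -0.05, -0.06 and -0.04 over all tested genes. It was above 0 for 64 of the 91 members in petal, 52 in cotyledon and 76 in root, again without a count over all tested genes. It passed for 9 members in petal (1.43% of all tested genes), for 2 in cotyledon (1.24%) and for 0 members and 0 tested genes in root.

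AT2G15960 had by far the widest dye gap among the members, 3.51 ± 0.46 (SE; limma adjusted p = 0.0095). Its ratios were -1.22 and -0.49 in petal, -1.04 and -1.37 in cotyledon and -2.02 and -1.88 in root with callus in Cy5, against -6.00 and -5.63, -5.38 and -4.85, and -3.48 and -3.74 with callus in Cy3. A single figure for the depth of its decrease is therefore not well set, though all 12 arrays were below 0, and its call held under every alternative run for it. AT4G16190 had a dye term of 2.47 ± 0.53 (limma adjusted p = 0.037), and in petal its means were -0.10 with callus in Cy5 and -4.28 with callus in Cy3. AT5G54940 at 1.49 ± 0.29, CURT1C at 1.08 ± 0.26 and AT5G24165 at 0.93 ± 0.21 followed (SE; limma adjusted p = 0.024, 0.049 and 0.043). In 87 genes with means of 2 or more in all 3 organs, the dye term was above 0 in 77, a share not counted over all tested genes. Its median there was 0.38, and it was called in 3 of the 87, beside 3.62% of all tested genes. By organ, the median for these raised genes was 0.69 in petal, 0.52 in cotyledon and 0.0072 in root.

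**Figure D4:**
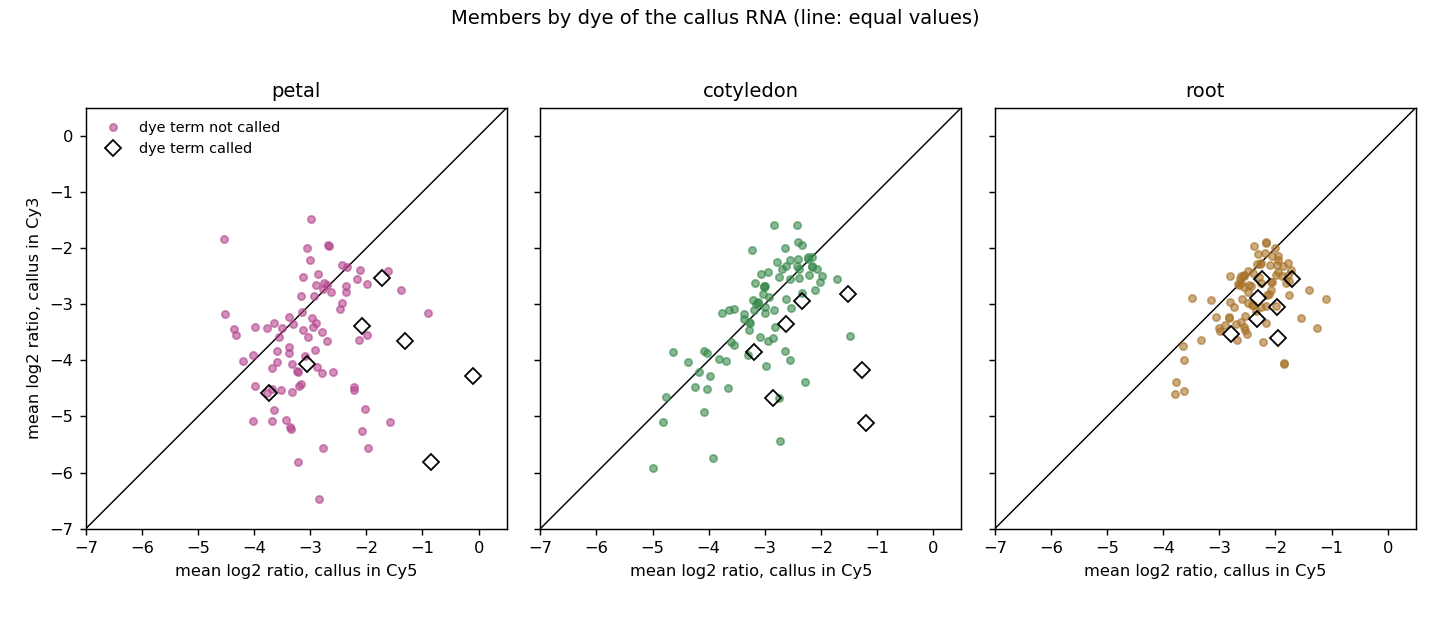
Mean log2 ratio of each member over the arrays with callus in Cy5 (horizontal axis) and with callus in Cy3 (vertical axis), in petal, cotyledon and root; diamonds mark the 7 members whose dye term passed, and the line marks equal values. Of the 91 members, 74 have a dye term above 0, which places them mostly below the line.

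Ratios at the limit touched the members little, because genes with many such ratios could not be chosen. Of 1092 member ratios, 9 were at the lower limit, 5 in petal, 2 in cotyledon and 2 in root, all on arrays with callus in Cy3, and none was at the upper limit. In all 83 members were measured on 12 arrays, 7 on 11 and AT3G46880 on 10. With limited ratios kept at their limit, 289 genes met the threshold in all organs, the 91 members among them, and 172 of the 289 had too few measured arrays to be tested here. Genes with ratios at the limit on several arrays of an organ are therefore not among the members.

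Position and length were not used by the rule. By chromosome, 23 members lay on chromosome 1, 9 on chromosome 2, 24 on chromosome 3, 14 on chromosome 4 and 21 on chromosome 5. Chromosome 3 held 26.4% of members against 21.2% of tested genes, and chromosome 2 held 9.89% against 14.7%. In the RefSeq order of protein-coding genes (assembly TAIR10.1), 8 members (8.79%) lay within 5 genes of another member, whereas 3.85% of the other tested genes lay that near to a member. The pairs were AT3G52480 with AT3G52500, AT3G56060 with AT3G56080, AT3G05165 with AT3G05180, and AT1G49470 with AT1G49500. Means of AT3G52480 were -3.29, -2.38 and -2.90 in petal, cotyledon and root, and those of its neighbour AT3G52500 were -4.28, -2.14 and -2.19. The median gene span was 1660 bases for members and 2230 bases for tested genes. These values are descriptions, with no test.

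Gene lists set the members beside related genes. Of 10 trihelix factors 7 were tested, GT2 among them. Leaving out GT2, whose ratios chose it, 2 of the other 6 were higher and 4 lower in petal by limma, 1 higher and 2 lower in cotyledon, and 3 higher and 2 lower in root. Their median ratios were -0.89 in petal, -0.22 in cotyledon and 0.47 in root, beside 0.18, 0.13 and 0.18 over all tested genes. Over all tested genes 45.2% were higher and 33.4% lower in petal, 40.7% and 30.3% in cotyledon, and 39.9% and 23% in root. Among the tested trihelix genes AT3G25990 was next lowest after GT2 in petal at -1.12 ± 0.27, and GT-1 (AT1G13450) next lowest in cotyledon at -0.91 ± 0.15 and in root at -0.41 ± 0.24 (SD, n = 4 each). AT2G38250 rose in all 3 organs, to 0.71 ± 0.46 in petal, 1.55 ± 0.30 in cotyledon and 0.78 ± 0.35 in root. PTL (AT5G03680), which restrains growth between sepals, fell in petal to -0.95 ± 0.09 and rose in root to 0.90 ± 0.62. In petal AT5G01380 rose to 1.08 ± 0.34 (limma adjusted p = 0.041), a call lost with the replicate block, with arrays centred on tested genes and with limited ratios kept.

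Of 11 genes of chlorophyll synthesis 2 were tested, and both fell in every organ. PORB (AT4G27440), the light-dependent protochlorophyllide oxidoreductase, was at -2.85 ± 0.24 in petal, -2.75 ± 0.59 in cotyledon and -1.72 ± 0.57 in root, and the methyltransferase gene CHLM (AT4G25080) at -2.48 ± 0.93, -2.56 ± 0.70 and -1.46 ± 0.33 (SD, n = 4 each). Of 14 circadian clock genes GI (AT1G22770) alone was tested. It fell to -0.79 ± 0.99 in petal, -0.95 ± 0.14 in cotyledon and -0.75 ± 0.38 in root, and the root call was lost with the replicate block and with limited ratios kept. Of 8 root epidermis markers EXPA7 and EXPA18 were tested. EXPA7 (AT1G12560) rose to 1.72 ± 0.26 in petal and 1.75 ± 0.39 in cotyledon, was at -0.25 ± 0.68 in root and did not pass there, and EXPA18 (AT1G62980), at 0.71 ± 1.65, -0.61 ± 1.90 (n = 3) and 0.57 ± 0.98 in petal, cotyledon and root, passed in none of them by limma. No gene of the lists for petal identity, the guard cell line, dividing cells, dark- and sugar-starvation response, jasmonate and wound response or flavonoid synthesis was among the tested genes, so the labelled tissues could not be checked against those markers.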

How the data were processed

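The authors deposited 1 table of log2 ratios of callus and explant RNA from 2-colour oligonucleotide arrays. The sources used here do not give their image software, background correction, normalization or filters. The deposited log2 ratios cover 24926 of 26090 probes, and 13.9% of 299112 values lay at a limit of 6.64 in size or at a floor of -33.22. These were set to missing, because such a value is only a bound. Within an organ, measured ratios of arrays with opposite dye correlated at 0.80 to 0.91, so the 4 arrays of an organ run in 1 direction. Whether the 3 organs share it was not tested. In root, the same correlations over all values, limits included, were between -0.59 and -0.25.

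Probes were named from the platform's table (13960 probes with a gene, 13954 matched to RefSeq TAIR10.1), averaged per gene and kept where each organ had 3 or more measured arrays. The model for these 9694 genes, in limma 3.58.1 (R 4.3.3), had a coefficient per organ and a dye term, over all 12 arrays. Benjamini-Hochberg adjustment covered all tested genes, with 0.05 as the threshold, and the scripts were tested on simulated data. The number of arrays limits the precision, and signal over background was not analysed here. The members, lists and rules for naming genes were chosen with earlier results of these data known. Named genes are members with a symbol, the 10 lowest, those next to the threshold, the widest organ differences and dye terms, the extremes of range, and tested list genes. Members named from RefSeq synonyms were added after their values were seen.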

Additional observations from a re-analysis of the deposited data

Results flagged for a closer look

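In 5 of 120 groups of 4 arrays, 1 array of a named member stood far from the other 3, where chance gives about 1 in 20 groups. That is no more than this rate gives. AT3G49790 gave -2.27 on root replicate 4, with the nearest other root array at -3.45. AT2G32150 gave -3.19 on root replicate 3 (nearest -3.92), AT4G09760 gave -2.32 on root replicate 3 (nearest -3.36), and AT4G21870 gave -6.56 on root replicate 2 (nearest -2.18). AT3G07010 gave -1.94 on cotyledon replicate 2 (nearest -2.60). Of these, 4 are in root, on 3 different arrays.

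The size of the decrease was called different between organs in the members with the widest gaps, listed as a description because the same organ means chose the members. For petal minus root the differences were -2.39 in AT3G07010, -2.09 in AT3G52500, -2.03 in AT3G61210, -1.998 in AT5G59080 and -1.82 in AT5G44410. For cotyledon minus root they were -2.91 in AT1G03106, -2.15 in AT3G05180, -2.07 in NPF6.4 (AT3G21670), 1.99 in AT5G23370 and -1.84 in AT1G03660. For petal minus cotyledon they were 2.31 in AT2G32150, -2.14 in AT3G52500, -2.05 in AT3G07010, 1.66 in AT1G61740 and -1.60 in AT3G04010.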

How the results depend on the processing

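The number of genes that met the rule was 289 with limited ratios kept, 224 with a threshold of -1.5 and 37 with a threshold of -2.5, in place of 91. It was 129 with arrays centred on tested genes, whose medians lay above 0 on every array, and 76 to 114 without 1 array at a time. Counting GT72B1 as a member, an alternative chosen after seeing the data, gave 92. Of the 91 members, 28 to 45 were called different for petal minus root, 25 to 35 for cotyledon minus root and 16 to 35 for petal minus cotyledon without 1 array at a time. Of all tested genes 55.2% to 59.3%, 48.5% to 55.9% and 43.2% to 49.7% were called in the same fits. The dye term was called in 4 of 91 members with the replicate block (1.36% of all tested genes) and 3 with 2 of 4 arrays per organ (1.79%). Without 1 array at a time it was called in 1 to 9 (1.07% to 4.12% of all tested genes), in place of 7. It was called in 10 of 91 with limited ratios kept, where 11% of all tested genes were called, so the members did not stand out there. With arrays centred it was called in 10 (3.25% of all tested genes). Of 83 members measured on all 12 arrays, 10 were called (5.07% of all such genes). Same-numbered arrays of different organs correlated above 0.1 in 9 of 12 pairs, in a range from -0.02 to 0.30, and between -0.16 and 0.27 within a dye. A pairing was accepted only with every pair above 0.1, so it was not taken, and an array matched best with its own number in 13 of 24 comparisons. The replicate block, which also holds the dye, gave 41, 32 and 24 of 91 members for petal minus root, cotyledon minus root and petal minus cotyledon. Of all tested genes it called 59.1%, 52.6% and 48.2%. Of the differences and dye terms of named members, 338 alternatives kept the call, 50 lost it and none changed direction. Organ means of named members, each counted once per alternative, moved by less than the SD between arrays in 607 cases. In 8 cases, all with centring, they moved further.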

Other observations

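Probes with no gene in the platform's table held more of the same pattern. Of 8283 such probes measured on 3 or more arrays of every organ, 123 (1.48%) had means of -2 or less in petal, cotyledon and root, beside 1.04% of the tested genes. They could not be named here.

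Among 4095 pairs of members, AT3G19460 and AT4G18205 had the most similar ratios, with a mean absolute difference of 0.14 over 12 arrays, where the median pair differed by 0.92. AT3G19460 read -3.76, -3.95, -2.38 and -0.95 on cotyledon replicates 1 to 4, and AT4G18205 read -3.62, -3.90, -2.36 and -1.44. Both thus shared a wide spread between replicates as well as their means. The pair was chosen after its values were seen. The next closest pair was AT3G52480 and AT5G52950, at 0.19. GT2 and AT4G12690 followed, at 0.26.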
